A study of Mus musculus with 35 samples.

Results

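Microglia sorted from the cerebellum of 9-week-old mice were compared with microglia sorted from the forebrain, in the control animals of 2 mouse lines. The comparison takes 11 of the 35 libraries of the series, chosen by the region, genotype and age in their labels: 5 cerebellar libraries (3 from Csf1fl/fl mice and 2 from Il34wt/wt mice) and 6 forebrain libraries (3 from each line). Csf1fl/fl mice carry loxP-flanked Csf1 and were the controls of NesCreCsf1fl/fl mice, in which Cre is driven by the Nestin promoter of the neural lineage. Il34wt/wt mice were the wild-type controls of Il34Lacz/Lacz mice, whose Il34 alleles carry LacZ. Other libraries of both regions were used beside them: 6 from Csf1fl/fl mice at postnatal day 8 (P8), 7 from NesCreCsf1fl/fl mice at 9 weeks and 5 from Il34Lacz/Lacz mice at 9 weeks. Titles of the 9-week libraries of the Csf1 line name the regions Cerebellum and Cerebrum. Those of the Il34 line and of P8 read HB and FB. This wording goes with line at 9 weeks and with age in the Csf1 line, and a difference in dissection behind it was not tested. The design text calls the libraries of a group biological replicates. Sex, pooling of animals and sort dates are not given in the sources used here, so a batch that coincides with region cannot be told apart from region.

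Microglia are the resident macrophages of the brain, and they depend on the receptor CSF1R and its ligands CSF1 and IL-34. In the resting adult brain they are known for purine receptors such as P2RY12, which sense nucleotides released by damaged cells, and for an identity kept by transcription factors such as SALL1 and by TGF-beta. Cerebellar microglia are known as sparser and less ramified than those of the forebrain, with a stronger expression of clearance and immune genes.

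Levels are given in CPM, which scales the reads of each library to a common total, over the 8006 genes present in all 4 control tables, normalised jointly over the 11 libraries. These genes held 541617 to 1624777 reads per library. All 10 microglial markers were present in every library, among them Csf1r at 10632 to 14969 CPM, P2ry12 at 4233 to 9219.6 CPM and Tmem119 at 2613 to 5354 CPM. The first principal component, with 42.1% of the variance, separated the lines, and the second, with 12.8%, separated the regions. The third, with 8.96%, set the Csf1fl/fl libraries numbered 2 of both regions apart. In each of the 4 tables that hold these control libraries, every gene exceeds a value of 10 in all control or all mutant libraries, so a gene that is low in one region can be missing from the joint set. In the P8 forebrain table of Csf1fl/fl mice 8499 of 9612 genes do so. Below, C1 to C3 are the Csf1fl/fl and I1 to I3 the Il34wt/wt libraries of a region, and cerebellar values follow the order C1, C2, C3, I1, I2.

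Genes that were higher in cerebellar microglia included Cd74, H2-K1, Axl, Clec7a, Apoe, Lpl, Ccl2, Egr1 and Nfkbia. Genes that were lower included the homeostatic genes P2ry12, Slc2a5 and Fcrls, the lipid transporters Abcg1 and Abca1 and the Fc receptor Fcgr3. Upk1b had the largest fall among the genes named by size below. The lists of lipid handling, engulfment, disease-associated microglia and chemokines held genes of both directions. Of the 8006 genes, 255 differed between regions at an adjusted p under 0.05, 3.19% of those tested (edgeR's quasi-likelihood test with line as a covariate, Benjamini-Hochberg adjustment over all genes). In cerebellum 114 genes were higher (1.42%) and 141 lower (1.76%), and 48 and 19 of them differed by at least 2-fold. Scaling by library totals alone gave 159 higher and 96 lower genes and moved the median log2 difference of all genes from 0.013 to 0.080. In 132 of the 255 genes the cerebellar and forebrain libraries did not overlap, beside 2.21% of all genes without overlap (1.09% higher and 1.12% lower). In bulk libraries, fewer cells of a kind and less RNA per cell cannot be told apart.

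The genes named by size were picked among called genes averaging 4 or more in log2 CPM. They also had no overlap between regions and the same sign in both lines. Their separation between regions was thus set by the choice and is no added result. Among them Cd74 had the largest rise. It encodes the invariant chain, the chaperone of MHC class II molecules. Its level was 47.6, 224, 267, 96.9 and 355 CPM in cerebellum and 17.0 to 30.5 CPM (median 29.1 CPM) in forebrain. All cerebellar libraries lay above all forebrain libraries, and replicate 1 of each line was the low cerebellar library. The log2 difference was 2.86 (SE 0.35, 7.27-fold, adjusted p = 7.83e-06).

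Axl and Clec7a, receptors of clearance and pattern recognition, also rose. Axl, a receptor tyrosine kinase that binds apoptotic material through its ligand GAS6, stood at 87.5, 127, 76.9, 71.6 and 135 CPM in cerebellum and at 11.8 to 24.4 CPM (median 19.5 CPM) in forebrain. The regions did not overlap, and the log2 difference was 2.38 (SE 0.22, 5.22-fold, adjusted p = 1.59e-07). Clec7a, the beta-glucan receptor Dectin-1, stood at 60.5, 148, 159, 121 and 123 CPM in cerebellum and at 20.2 to 48.7 CPM (median 29.2 CPM) in forebrain. C1 was its lowest cerebellar library and still above every forebrain library. Its log2 difference was 2.03 (SE 0.23, 4.07-fold, adjusted p = 3.84e-06).

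Myo5a, Vim and Emp3 were the rest of the 6 largest rises. Myo5a, an actin motor that carries organelles, stood at 41.8, 66.4, 45.1, 106 and 106 CPM in cerebellum and at 9.24 to 28 CPM (median 15.9 CPM) in forebrain. Within cerebellum the Il34wt/wt libraries were the higher ones. Its log2 difference was 2.13 (SE 0.23, adjusted p = 1.31e-06). Vim, the intermediate filament vimentin, stood at 31.5, 28.7, 41.0, 19.8 and 39.4 CPM in cerebellum and at 2.30 to 12.2 CPM (median 6.60 CPM) in forebrain. The lowest cerebellar library was above the highest forebrain library, and the log2 difference was 2.04 (SE 0.30, adjusted p = 0.000112). Emp3, a membrane protein with 4 transmembrane spans, stood at 36.0, 59.2, 42.0, 44.0 and 21.2 CPM in cerebellum and at 2.30 to 16.0 CPM (median 10.5 CPM) in forebrain. Its regions were also separate, with a log2 difference of 2.00 (SE 0.30, adjusted p = 0.000142).

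Upk1b, a tetraspanin best known from the bladder epithelium, had the largest fall among the genes named by size and the smallest p of all genes. It stood at 19.3, 19.7, 13.3, 26.4 and 30.3 CPM in cerebellum and at 123 to 203 CPM (median 162 CPM) in forebrain. Every forebrain library was far above every cerebellar library in both lines. The log2 difference was -2.86 (SE 0.16, 7.27-fold lower, adjusted p = 3.1e-11).

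Bank1 and Fcrl1, genes best known from B cells, were also lower. Bank1, a scaffold of B-cell receptor signalling, stood at 29.6, 37.7, 25.6, 40.7 and 33.4 CPM in cerebellum and at 66.1 to 137 CPM (median 98.3 CPM) in forebrain. Fcrl1, an Fc receptor-like protein of B cells, stood at 27.7, 29.6, 46.1, 47.3 and 34.9 CPM in cerebellum and at 76.2 to 121 CPM (median 85.2 CPM) in forebrain. Neither gene's regions overlapped. The log2 differences were -1.64 (SE 0.20, adjusted p = 7.35e-06) and -1.30 (SE 0.19, adjusted p = 8.02e-05). Cd79b, a part of the B-cell receptor and the only measured gene of 20 lymphocyte markers, stood at 41.7 ± 10.8 CPM in cerebellum and 41.1 ± 16.5 CPM in forebrain (SD, n = 5 and 6), a log2 difference of 0.0054 (SE 0.26, adjusted p = 0.996). The part of B cells in these values was not tested.

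Tgm2, Crybb1 and Tmem44 completed the 6 largest falls. Tgm2, a transglutaminase that crosslinks proteins, stood at 55.3, 26.9, 41.0, 58.4 and 42.5 CPM in cerebellum and at 97.9 to 135 CPM (median 121 CPM) in forebrain. Crybb1, a beta-crystallin of the lens that microglia also express, stood at 59.8, 56.5, 52.3, 62.8 and 30.3 CPM in cerebellum and at 84.4 to 181 CPM (median 134 CPM) in forebrain. The regions were separate for both, with log2 differences of -1.43 (SE 0.18, adjusted p = 1.13e-05) and -1.36 (SE 0.17, adjusted p = 9.83e-06). Tmem44, a transmembrane protein, stood at 23.2, 19.7, 27.7, 44.0 and 24.3 CPM in cerebellum and at 49.9 to 86.3 CPM (median 68.0 CPM) in forebrain. It too was separate, with a log2 difference of -1.27 (SE 0.20, adjusted p = 0.00031).

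**Figure D1:**
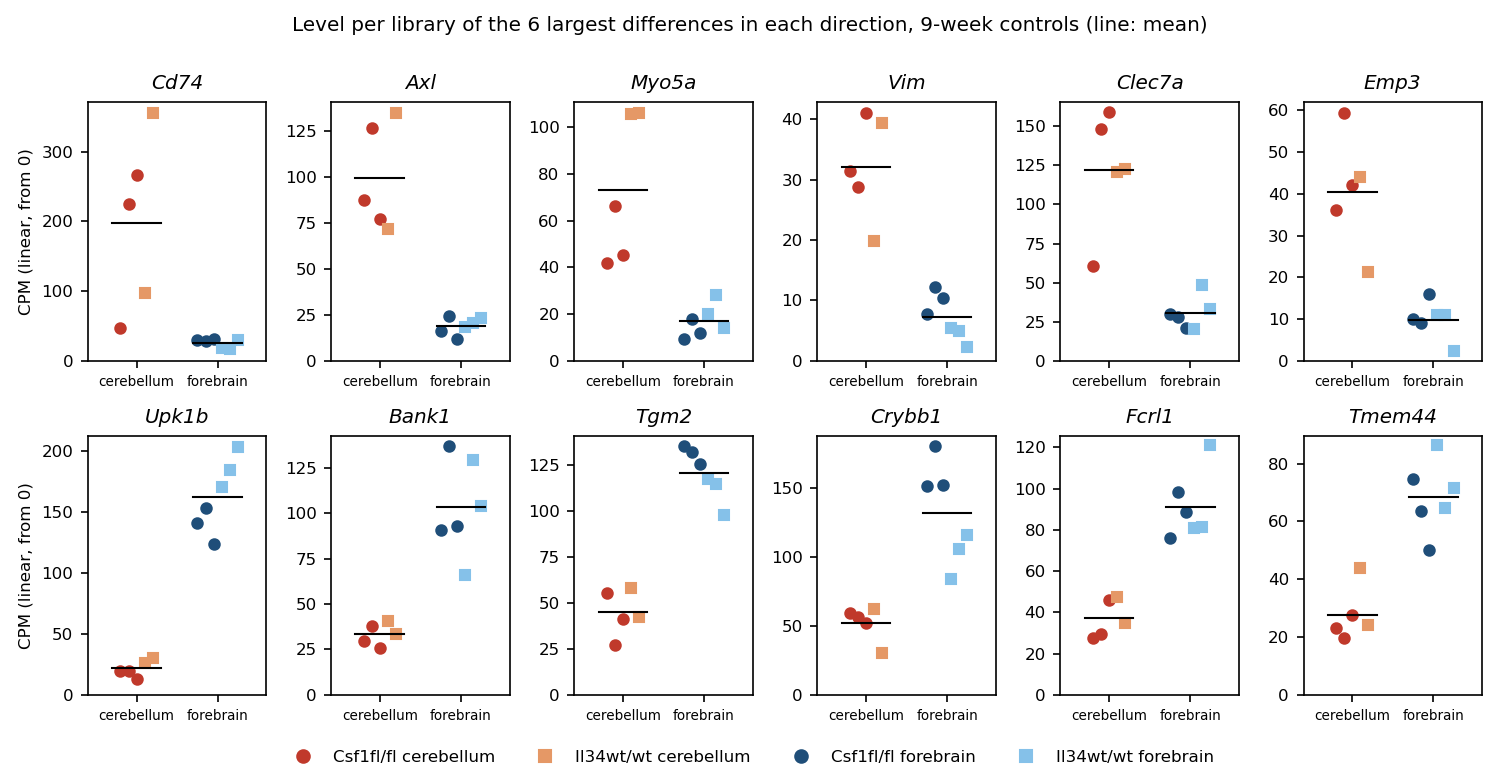
Level in CPM, on a linear axis from 0, of the 6 genes with the largest rise (top) and the 6 with the largest fall (bottom) in cerebellum, 1 point per library of 9-week Csf1fl/fl (circles) and Il34wt/wt (squares) mice; lines are means over 5 cerebellar and 6 forebrain libraries. The genes were picked among those without overlap, so the regions are apart in every panel by choice. Cd74 runs from 47.6 to 355 CPM within cerebellum.

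The other 16 of the 28 genes named by size, which had to be called, free of overlap between regions and of the same sign in both lines, are given by their range. On the higher side, Ptchd1 (a patched-domain membrane protein), Lpl (lipoprotein lipase), Ccl2 (a chemokine that attracts monocytes), Sdc3 (the proteoglycan syndecan 3), Clic4 (a chloride intracellular channel protein), Ly9 (a SLAM-family receptor), Dnase1l1 (a DNase) and Adamts1 (a secreted metalloprotease) had log2 differences from 1.86 down to 1.51. On the lower side, Lag3 (an inhibitory receptor that binds MHC class II), Slc2a5 (the fructose transporter GLUT5), Gpr165 (an orphan receptor), Pde2a (a cyclic nucleotide phosphodiesterase), Fam110a, Fcrls (an Fc receptor-like protein of microglia), Prkce (protein kinase C epsilon) and Tmem144 ran from -1.25 to -1.07. All 28 genes kept their call when any single library was left out.

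A second fit of the same 11 libraries, with a mean for each group, gave each line its own difference. Within Csf1fl/fl mice 42 genes were higher and 48 lower in cerebellum (0.525% and 0.6% of genes, 1.12% together), and within Il34wt/wt mice 30 were higher and 20 lower (0.375% and 0.25%). Upk1b had log2 differences of -2.97 and -2.72 in Csf1fl/fl and Il34wt/wt, Axl of 2.46 and 2.28, and Cd74 of 2.58 and 3.32. A test of the difference between the lines called 0 of 8006 genes (0.0%) with edgeR and 0 with DESeq2, and 251 and 190 genes had an unadjusted p under 0.05. The smallest p belonged to Rnf141, Galm and Pot1a among positive and to Pogz, Cdk2 and Kif16b among negative interactions, all at an adjusted p of 0.999. In each of these 6 genes the sign differed between lines, as for Galm with -1.68 and 0.48.

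**Figure D2:**
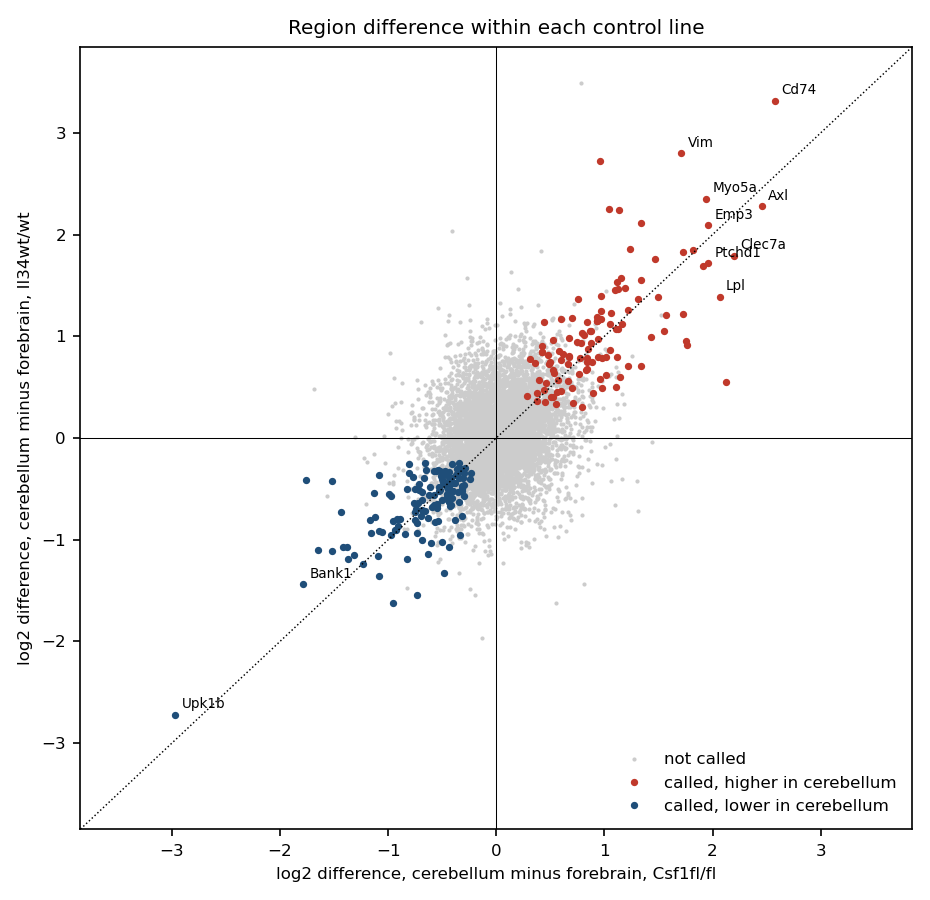
Log2 difference between cerebellum and forebrain within Csf1fl/fl (x axis) and within Il34wt/wt (y axis), 1 point per gene for 8006 genes; coloured points are the 255 genes called over both lines, grey points were not called, and the dotted diagonal marks equal differences. Cd74 lies at 2.58 and 3.32 and Upk1b at -2.97 and -2.72.

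All 28 homeostatic genes of microglia in the list were measured and had negative log2 differences, with a median of -0.43 beside 0.013 for all genes, of which 52.3% were positive. Of the 28, 18 fell, beside 1.76% of all genes called lower, and 0 rose. Leaving out single libraries gave 15 to 20 falls and medians of -0.44 to -0.40. The fit without line called 7 of the 28, Csf1fl/fl libraries alone 8 and Il34wt/wt libraries alone 4, at medians of -0.41, -0.39 and -0.47. Slc2a5 stood at 389, 416, 380.4, 406 and 337 CPM in cerebellum and at 745 to 1007 CPM (median 965 CPM) in forebrain. P2ry12, the nucleotide receptor, stood at 4233, 4236, 4486, 4868 and 4552 CPM in cerebellum and at 7376 to 9219.6 CPM (median 7905 CPM) in forebrain. Fcrls stood at 1641, 2022, 2391, 1969 and 1501 CPM in cerebellum and at 3415 to 4673 CPM (median 4096 CPM) in forebrain. For these 3 genes no cerebellar library reached the lowest forebrain library. Their log2 differences were -1.24 (SE 0.097, adjusted p = 1.11e-08), -0.86 (SE 0.077, adjusted p = 8.48e-08) and -1.12 (SE 0.10, adjusted p = 1.07e-07).

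Crybb1 belongs to this list too, and other members were also called. Ltc4s, the leukotriene C4 synthase, had a log2 difference of -0.89 (SE 0.14, adjusted p = 0.0003), Ecscr, a cell surface protein, of -0.81 (SE 0.16, adjusted p = 0.00293) and Gpr56, an adhesion receptor, of -0.66 (SE 0.096, adjusted p = 0.000102). Tmem119, a microglial surface marker, stood at 3968, 2619, 3132, 2613 and 2739.8 CPM in cerebellum and at 3828 to 5354 CPM (median 4267 CPM) in forebrain. The regions overlapped for Tmem119, whose log2 difference was -0.57 (SE 0.091, adjusted p = 0.000277). Olfml3, a secreted olfactomedin-like protein, Sparc, a matrix protein, P2ry13, a relative of P2ry12, Cst3, the protease inhibitor cystatin C, Gpr34, a lysophospholipid receptor, and Golm1, a Golgi protein, had log2 differences of -0.55, -0.53, -0.47, -0.46, -0.42 and -0.41. Siglech, a sialic acid-binding lectin, and Selplg, a selectin ligand, differed by -0.45 (SE 0.11, adjusted p = 0.0179) and -0.31 (SE 0.076, adjusted p = 0.0178). Siglech lost its call without cerebellar C3 and I2 and forebrain C2 (adjusted p up to 0.0802) and Selplg without cerebellar C2, C3 and I2 (adjusted p up to 0.0795).

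The calls among regulators of microglial identity were all falls. Of 34 measured transcription factors 2 fell and 0 rose, beside 1.76% of all genes called lower, and the median was 0.11. Maf, a bZIP factor, stood at 309, 256, 345, 416 and 425 CPM in cerebellum and at 403 to 792 CPM (median 499 CPM) in forebrain. Sall1, a zinc-finger factor that marks microglia among macrophages, stood at 407, 438, 399, 546 and 462 CPM in cerebellum and at 501 to 684 CPM (median 593 CPM) in forebrain. The regions overlapped for both genes. Their log2 differences were -0.55 (SE 0.11, adjusted p = 0.00332) and -0.37 (SE 0.089, adjusted p = 0.0176), and Sall1 lost its call without cerebellar C3 and I2 (adjusted p up to 0.0795). The median of 19 measured genes of TGF-beta signalling was -0.015, or 0.052 with library totals alone. Of these 3 fell, beside the same 1.76% of all genes, and 0 rose. They were the receptor Tgfbr1 (-0.43, SE 0.091, adjusted p = 0.00613), the feedback inhibitor Pmepa1 (-0.52, SE 0.11, adjusted p = 0.00645) and the co-receptor Eng (-0.47, SE 0.11, adjusted p = 0.0179). Eng lost its call without cerebellar C2 and I1 and forebrain C1 (adjusted p up to 0.057).

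In the list of CSF1R ligands, receptor and signalling 1 of 24 measured genes rose and 0 fell, beside 1.42% and 1.76% of all genes. Csf1r itself stood at 11863, 11634, 12366, 13038 and 10632 CPM in cerebellum and at 12633 to 14969 CPM (median 13914 CPM) in forebrain. The regions overlapped, and the log2 difference was -0.23 (SE 0.068, adjusted p = 0.0729). It passed the threshold without cerebellar I1 (-0.29, adjusted p = 0.0169) and by voom with quality weights (-0.22, adjusted p = 0.00634). DESeq2 called 1 gene of the list higher and 1 lower. Csf1, a ligand, stood at 15.2 to 36.9 CPM in cerebellum and 6.91 to 31.6 CPM in forebrain, a log2 difference of 0.23 (SE 0.27, adjusted p = 0.765). Il34, the other ligand, had a row in the table of Csf1fl/fl cerebellum only, at 8.12, 8.92 and 10 CPM of that table, and was not compared. The gene that rose was Csf2ra, the alpha chain of the GM-CSF receptor, which is not CSF1R. Csf2ra stood at 92.6, 95.1, 112, 63.9 and 63.7 CPM in cerebellum and 25.7 to 61.6 CPM (median 33.8 CPM) in forebrain. Its regions were separate, with a log2 difference of 1.06 (SE 0.17, adjusted p = 0.000277).

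Purine receptors and ion channels were called in both directions, with 2 of 23 measured genes higher and 5 lower. Of all genes 1.42% were called higher and 1.76% lower. Beside P2ry12 and P2ry13 the falls were the ectonucleotidase Entpd1 (-0.40, SE 0.091, adjusted p = 0.0103), the cation channel Trpm2 (-0.66, SE 0.17, adjusted p = 0.0288) and the glutamate transporter Slc1a3. Slc1a3 stood at 124, 106, 109, 171 and 144 CPM in cerebellum and at 182 to 316 CPM (median 258 CPM) in forebrain. Its regions were separate, with a log2 difference of -0.92 (SE 0.12, adjusted p = 1.45e-05). The rises were Clic4 (1.61, SE 0.30, adjusted p = 0.00182) and Kcnj2, an inward-rectifier potassium channel (0.95, SE 0.18, adjusted p = 0.00267). Trpm2 lost its call without cerebellar C1, C2 and I1 and forebrain C2, C3, I2 and I3 (adjusted p up to 0.112).

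Of 46 genes stimulated by interferon 28 were measured, all with positive log2 differences and a median of 0.51, and 7 rose while 0 fell, beside 1.42% of all genes called higher. Sp100, a nuclear body protein, stood at 35.4, 40.4, 37.9, 47.3 and 42.5 CPM in cerebellum and at 8.52 to 20.8 CPM (median 11.7 CPM) in forebrain. Slfn2, a Schlafen protein, stood at 47.6, 60.1, 49.2, 70.5 and 57.6 CPM in cerebellum and at 16.9 to 31.5 CPM (median 20.7 CPM) in forebrain. Lgals3bp, a secreted glycoprotein that binds galectins, stood at 235, 294, 271, 263 and 276 CPM in cerebellum and at 127 to 195 CPM (median 160.3 CPM) in forebrain. None of these 3 overlapped between regions, and their log2 differences were 1.48 (SE 0.25, adjusted p = 0.000681), 1.31 (SE 0.21, adjusted p = 0.000379) and 0.72 (SE 0.12, adjusted p = 0.000348).

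Other interferon genes rose with overlapping libraries. Oasl2, an antiviral OAS-family protein, ranged over 17.4 to 54.6 CPM in cerebellum and 2.44 to 18.4 CPM in forebrain, with a log2 difference of 1.61 (SE 0.36, adjusted p = 0.00901). The RNA sensor Dhx58 and the receptor transporter Rtp4 differed by 1.03 (SE 0.23, adjusted p = 0.0102) and 0.93 (SE 0.25, adjusted p = 0.0346). Rtp4 lost its call without cerebellar C1, C3 and I1 and forebrain C1, C3 and I2 (adjusted p up to 0.157). Single omissions gave 5 to 8 rises in the list. Fitted on Csf1fl/fl libraries alone, 0 of the 28 were called (14 at an unadjusted p under 0.05), and on Il34wt/wt alone 2, at medians of 0.63 and 0.53.

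In MHC class I presentation 2 of 15 measured genes rose and 0 fell, beside 1.42% and 1.76% of all genes. H2-K1, a classical heavy chain, stood at 397, 413, 466, 335 and 506 CPM in cerebellum and at 165 to 289.9 CPM (median 230.1 CPM) in forebrain. Its regions were separate, with a log2 difference of 0.90 (SE 0.12, adjusted p = 4.42e-05). H2-D1, another heavy chain, differed by 0.62 (SE 0.15, adjusted p = 0.0153) with overlap, and lost its call without cerebellar C1 and I2 and forebrain C1 (adjusted p up to 0.0552). These genes are close paralogs whose reads could be split between them, so both values are uncertain. In class II presentation Cd74 and the thiol reductase Ifi30 (0.59, SE 0.12, adjusted p = 0.005) rose among 9 measured genes, and the costimulatory ligand Cd86 fell (-0.44, SE 0.10, adjusted p = 0.0135).

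The class II chains were mostly outside the joint set. H2-Aa and H2-Eb1, chosen here after their values were seen, had rows in both cerebellar tables and in neither forebrain table. In CPM of each library's own table, H2-Aa stood at 10, 212 and 158 in Csf1fl/fl cerebellum and at 56.6 and 347 in Il34wt/wt cerebellum. H2-Eb1 stood at 8.75, 123 and 135 and at 51.0 and 203. For both genes replicate 1 was the low library of each line, as for Cd74. H2-Ab1 lacked a row only in the Il34 forebrain table. In Il34wt/wt cerebellum it stood at 128 and 484 CPM of each library's own table, with replicate 1 again low. In the Csf1 line it stood at 35.2, 319 and 312 CPM in cerebellum and 12.6, 33.5 and 52.7 CPM in forebrain. In the fit of the Csf1 line its log2 difference was 2.71 (SE 0.52, adjusted p = 0.0044), where 1.55% of 9156 genes were called (0.732% higher and 0.819% lower). Its cerebellar C1 lay within the forebrain range.

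Ccr2, the chemokine receptor of monocytes, was low in the same cerebellar libraries. Of 17 monocyte markers 4 had rows in both cerebellar tables, and Ccr2 alone had rows in both forebrain tables too. It stood at 7.72, 27.8, 26.7, 9.91 and 95.5 CPM in cerebellum and at 1.54 to 30.4 CPM (median 13.2 CPM) in forebrain. The low cerebellar libraries were C1 and I1, as for Cd74. The regions overlapped, with a log2 difference of 1.37 (SE 0.45, adjusted p = 0.11). It passed the threshold without cerebellar C1 (1.56, adjusted p = 0.0426) or I1 (1.79, adjusted p = 0.00962). The part of monocyte-derived cells in the class II values was not tested.

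Genes known from disease-associated microglia were called in both directions. Of 24 measured genes 6 rose and 2 fell, beside 1.42% and 1.76% of all genes, and the median was 0.17. Beside Axl and Clec7a the rises were led by Lpl and Apoe. Lpl stood at 149, 161, 277, 84.8 and 75.8 CPM in cerebellum and at 26.9 to 75.2 CPM (median 32.0 CPM) in forebrain. Apoe, the main lipid carrier of the brain, stood at 1214, 2794, 1739, 1036 and 1647 CPM in cerebellum and at 406 to 894 CPM (median 709.5 CPM) in forebrain. Both were separate between regions, with log2 differences of 1.83 (SE 0.23, adjusted p = 1.45e-05) and 1.24 (SE 0.16, adjusted p = 2.32e-05). The other 2 rises were lysozyme, Lyz2 (1.26, SE 0.20, adjusted p = 0.000299), and ferritin heavy chain, Fth1 (0.34, SE 0.086, adjusted p = 0.0242). The falls were the protease Ctsd (-0.35, SE 0.071, adjusted p = 0.00461) and the protease inhibitor Serpine2 (-0.37, SE 0.091, adjusted p = 0.0198). Fth1 lost its call without cerebellar C2, I1 and I2 and forebrain C2, C3 and I2 (adjusted p up to 0.0894), and Serpine2 without cerebellar C2, I1 and I2 (adjusted p up to 0.0685).

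Among 19 measured genes of lipid handling 4 rose and 3 fell, beside 1.42% and 1.76% of all genes. The rises were Lpl, Apoe and the lipid droplet coats Plin3 (0.95, SE 0.22, adjusted p = 0.0106) and Plin2 (0.71, SE 0.19, adjusted p = 0.0319). The falls were the cholesterol efflux transporters Abcg1 and Abca1 (-0.51, SE 0.12, adjusted p = 0.0135) and the ubiquitin ligase Mylip (-0.40, SE 0.096, adjusted p = 0.017), which degrades the LDL receptor. Abcg1 stood at 238, 316, 329, 340.2 and 314 CPM in cerebellum and at 508 to 619 CPM (median 589 CPM) in forebrain. Its regions were separate, with a log2 difference of -0.90 (SE 0.11, adjusted p = 4.89e-06). Plin3 lost its call without cerebellar I2 (adjusted p 0.0674), Plin2 without cerebellar C1, C3 and I1 and forebrain C1, C3 and I3 (adjusted p up to 0.12), Abca1 without cerebellar I1 (adjusted p 0.0525) and Mylip without cerebellar C2 and I2 (adjusted p up to 0.0737). Of 12 measured genes of cholesterol synthesis 0 were called by edgeR and 0 by DESeq2, and 1 positive and 1 negative had an unadjusted p under 0.05. The most abundant were Ebp, a sterol isomerase, at -0.42 (SE 0.17, adjusted p = 0.218) and Hmgcs1, the HMG-CoA synthase, at 0.017 (SE 0.18, adjusted p = 0.985).

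The calls among genes of degradation were mostly falls. Of 40 lysosomal genes 3 fell and 0 rose, beside 1.76% and 1.42% of all genes, with a median of -0.049. They were the protease Tpp1 (-0.50, SE 0.10, adjusted p = 0.00461), Ctsd and the lysosomal membrane protein Laptm5 (-0.29, SE 0.072, adjusted p = 0.0194). Of 30 engulfment genes 1 rose (Axl) and 4 fell. The falls were the Fc receptor Fcgr3 (-0.42, SE 0.10, adjusted p = 0.0158), the scavenger receptor Stab1 (-0.36, SE 0.094, adjusted p = 0.029), the Fc receptor gamma chain Fcer1g (-0.32, SE 0.083, adjusted p = 0.0322) and the Rac activator Elmo1 (-0.31, SE 0.086, adjusted p = 0.0424). Laptm5 lost its call without cerebellar C2, C3 and I2 (adjusted p up to 0.0851), Fcgr3 without cerebellar C3 and forebrain C2 (adjusted p up to 0.0598), Stab1 without cerebellar C1, C2 and I2 and forebrain C1, C2 and I2 (adjusted p up to 0.11), Fcer1g without cerebellar C2, C3 and I2 and forebrain C2, C3 and I3 (adjusted p up to 0.11) and Elmo1 without cerebellar C2, C3, I1 and I2 and forebrain C2, C3, I2 and I3 (adjusted p up to 0.165). Single omissions gave 0 to 5 falls in the engulfment list. With library totals alone 0 of the engulfment genes fell. Of 11 complement genes C3ar1, the C3a receptor, rose (0.45, SE 0.093, adjusted p = 0.005) and 0 fell.

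**Figure D3:**
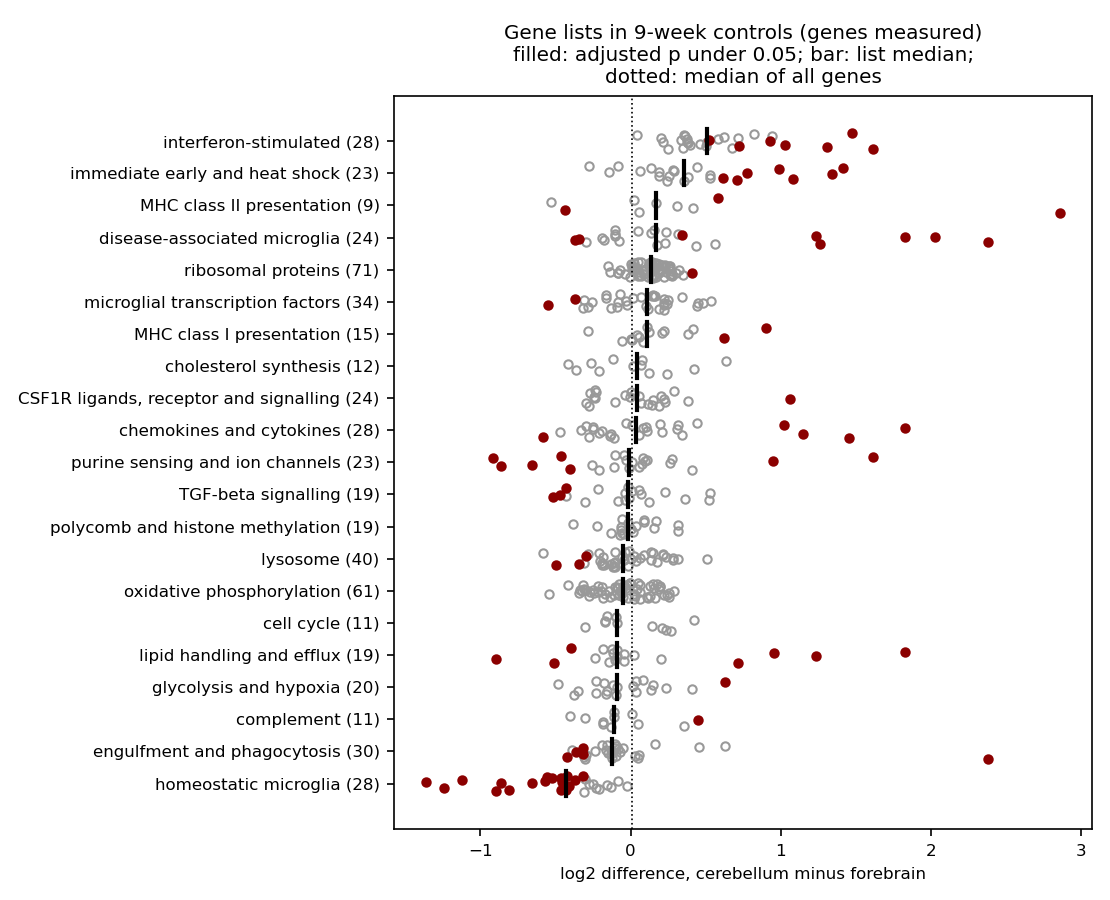
Log2 difference between cerebellum and forebrain for the members of 21 gene lists, 1 point per gene measured in all 4 tables, ordered by list median (bar); filled points have an adjusted p under 0.05 and the dotted line is the median of all 8006 genes. The homeostatic list has the lowest median (-0.43) and the interferon list the highest (0.51).

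Chemokine genes had a few large rises. Of 28 measured genes of chemokines and cytokines 4 rose and 1 fell, beside 1.42% and 1.76% of all genes. The median was 0.034. Ccl2 stood at 220.0, 246, 391, 145 and 265 CPM in cerebellum and at 32.9 to 103 CPM (median 69.7 CPM) in forebrain. Ccl12, a close relative of Ccl2, stood at 101, 259, 195, 91.4 and 109 CPM in cerebellum and at 35.3 to 81.1 CPM (median 41.4 CPM) in forebrain. Neither overlapped between regions, and their log2 differences were 1.83 (SE 0.21, adjusted p = 3.84e-06) and 1.46 (SE 0.21, adjusted p = 7.09e-05). Ccl3 (1.15, SE 0.17, adjusted p = 0.000112) and Ccl4 (1.02, SE 0.17, adjusted p = 0.000592), chemokines of the same family, rose with overlapping libraries. Ccl9 fell (-0.58, SE 0.15, adjusted p = 0.0262) and lost its call without cerebellar C1 and C3 and forebrain C1, C2 and I2 (adjusted p up to 0.0887).

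Of 23 measured immediate early and heat shock genes 7 rose and 0 fell, beside 1.42% and 1.76% of all genes. The median was 0.36. Fitted on Csf1fl/fl libraries alone 7 rose, and on Il34wt/wt libraries alone 2, at medians of 0.44 and 0.22. Nfkbia, an inhibitor and target of NF-kappaB, stood at 609, 603, 523, 396 and 432 CPM in cerebellum and at 176 to 327 CPM (median 210.1 CPM) in forebrain. Egr1, a zinc-finger factor induced within minutes of stimulation, stood at 1232, 1690.1, 1030.5, 639 and 876 CPM in cerebellum and at 192 to 628 CPM (median 393 CPM) in forebrain. Both were separate between regions, with log2 differences of 1.08 (SE 0.11, adjusted p = 3.22e-07) and 1.34 (SE 0.19, adjusted p = 8.02e-05). The early regulators Ier2 and Klf6 differed by 1.42 (SE 0.15, adjusted p = 6.36e-07) and 0.78 (SE 0.11, adjusted p = 4.6e-05). Fos, an AP-1 subunit, Nfkbiz, an atypical inhibitor of NF-kappaB, and Dnajb1, a heat shock co-chaperone, differed by 0.71, 0.99 and 0.61, and Dnajb1 lost its call without cerebellar C1, C2, C3 and I2 and forebrain C2, C3 and I2 (adjusted p up to 0.128).

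Promoter sequence is shown for genes of both directions, because NF-kappaB targets were among the rises and PU.1 is the lineage factor of microglia. The 250 bases before the annotated start (RefSeq, GRCm38.p6) were searched on both strands for a kappaB site, spelled GGG, any 2 bases, TT, any base and CC, and for the PU.1 core GAGGAAG. A promoter was found for 84 of the 114 higher genes, 105 of the 141 lower genes and 6501 of the 8006 genes tested. The kappaB letters were in 10.7%, 1.9%, 4.58% and 4% of the promoters of higher genes, of lower genes, of all genes tested and of all 27025 promoters in the table. In the same order the PU.1 core was in 10.7%, 19%, 10.8% and 10.4%, the interferon element (GAAA, any 2 bases and GAAA) in 3.57%, 2.86%, 2.52% and 3.04%, the AP-1 site TGANTCA in 5.95%, 3.81%, 3.89% and 6.87% and the cyclic AMP element TGACGTCA in 4.76%, 2.86%, 2.92% and 1.62%. These matches describe letters in a window and are no sites of binding. The promoters below, 5′ to 3′ on the gene's strand, are those of list members of each direction with a match, in capitals. Nfkbia and H2-K1 hold the kappaB letters, and Fcrls and P2ry13 the PU.1 core. They lie at chr12:55492648-55492897, chr17:34000348-34000597, chr3:87263525-87263774 and chr3:59210883-59211132, all on the minus strand.
Nfkbia: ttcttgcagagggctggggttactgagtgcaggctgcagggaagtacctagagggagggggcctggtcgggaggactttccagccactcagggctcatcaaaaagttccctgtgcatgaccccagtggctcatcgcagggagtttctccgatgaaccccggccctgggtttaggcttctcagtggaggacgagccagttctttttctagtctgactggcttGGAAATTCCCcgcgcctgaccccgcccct
H2-K1: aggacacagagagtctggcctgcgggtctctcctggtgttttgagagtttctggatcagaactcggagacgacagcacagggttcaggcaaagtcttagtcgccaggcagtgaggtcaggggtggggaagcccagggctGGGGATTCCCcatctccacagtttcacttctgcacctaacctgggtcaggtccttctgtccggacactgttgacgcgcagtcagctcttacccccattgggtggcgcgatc
Fcrls: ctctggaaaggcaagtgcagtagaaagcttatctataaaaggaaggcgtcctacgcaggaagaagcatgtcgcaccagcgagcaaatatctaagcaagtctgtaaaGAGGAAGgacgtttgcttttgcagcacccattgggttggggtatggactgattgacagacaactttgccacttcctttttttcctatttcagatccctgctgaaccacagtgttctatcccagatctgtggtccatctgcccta
P2ry13: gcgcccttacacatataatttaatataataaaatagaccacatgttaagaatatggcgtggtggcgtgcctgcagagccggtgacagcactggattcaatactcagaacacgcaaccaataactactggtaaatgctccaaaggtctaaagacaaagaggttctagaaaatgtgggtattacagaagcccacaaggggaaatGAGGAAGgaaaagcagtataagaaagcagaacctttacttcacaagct

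Genes of metabolism and growth showed few calls. Of 61 genes of oxidative phosphorylation and 11 of the cell cycle 0 were called by edgeR and 0 and 0 by DESeq2, with medians of -0.052 (0.016 with library totals alone) and -0.089. At an unadjusted p under 0.05 there were 0 positive and 1 negative genes in the first list and 0 positive and 0 negative in the second. The most abundant were the ATP synthase subunits Atp5b (0.045, SE 0.097, adjusted p = 0.894) and Atp5a1 (0.062, SE 0.10, adjusted p = 0.857), the tubulin Tubb5 (-0.17, SE 0.099, adjusted p = 0.47) and the histone variant H2afz (-0.17, SE 0.11, adjusted p = 0.514). Of 20 genes of glycolysis and hypoxia 1 was called, beside 3.19% of all genes. This was Pfkfb3, whose product makes an activator of glycolysis, and it rose (0.63, SE 0.13, adjusted p = 0.00382). Of 71 ribosomal protein genes 64 had positive differences, beside 52.3% of all genes, with a median of 0.14. Of the 71 genes 1, Rpsa, rose (0.41, SE 0.10, adjusted p = 0.0248), beside 1.42% of all genes called higher. Rpsa lost its call without cerebellar C3, I1 and I2 and forebrain C1, C2 and I2 (adjusted p up to 0.0948). Of 19 genes of polycomb and histone methylation 0 were called by edgeR and 0 by DESeq2, and 0 positive and 1 negative had an unadjusted p under 0.05. The most abundant were the methyltransferase Kmt2d (0.089, SE 0.11, adjusted p = 0.777) and the demethylase Kdm5a (-0.018, SE 0.12, adjusted p = 0.971).

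Markers of other cells were mostly not in all 4 tables. Rows in both cerebellar tables against both forebrain tables numbered 8743 against 8227 for all genes, 9 against 5 for endothelial and pericyte markers, 2 against 1 for pan-neuronal markers and 5 against 4 for border-associated macrophages. Of 18 forebrain neuron markers and of 8 red blood cell markers 0 were, and of 16 pan-neuronal markers 1 was. This was Snhg11, a noncoding RNA, with a log2 difference of 0.50 (SE 0.26, adjusted p = 0.382). Cerebellar neuron markers numbered 4 of 19, with a summed level of 77.2 to 197 CPM in cerebellum and 68.5 to 161 CPM in forebrain. Among them Etv1 and Cbln3 differed by -0.25 (SE 0.19, adjusted p = 0.579) and 0.46 (SE 0.28, adjusted p = 0.475). Endothelial and pericyte markers numbered 5 of 18, with a summed level of 327 to 979 CPM in cerebellum and 326 to 808 CPM in forebrain. Bsg differed by -0.089 (SE 0.12, adjusted p = 0.807) and the tight junction gene Cldn5 by 0.86 (SE 0.37, adjusted p = 0.262), which passed without cerebellar C2 (1.19, adjusted p = 0.0297). Of 14 neutrophil markers 1 was measured, the receptor Cxcr2. Cxcr2 ranged over 16.7 to 155 CPM in cerebellum and 16.9 to 143 CPM in forebrain. Its log2 difference was 0.36 (SE 0.24, adjusted p = 0.524). The neutrophil genes S100a8 and S100a9 had rows for Csf1fl/fl cerebellum only. In C1, C2 and C3, S100a8 stood at 83.1, 99.9 and 168 and S100a9 at 91.2, 103 and 193. These values are CPM of each library's own table. Both genes lack forebrain values, so they were not compared between regions. The part of these cells in the region differences was not tested.

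Markers of glia and border macrophages held a few calls, beside 3.19% of all genes called in either direction. Of 17 astrocyte and Bergmann glia markers 3 were measured, with a summed level of 204 to 356 CPM in cerebellum and 246 to 338 CPM in forebrain. Of these 1 rose and 1, Slc1a3, fell. Of 17 oligodendrocyte markers 4 were measured, with a summed level of 1651 to 1920.1 CPM in cerebellum and 1901 to 2542 CPM in forebrain, and transferrin, Trf, fell (-0.30, SE 0.080, adjusted p = 0.0308). Border-associated macrophages line vessels and meninges. Of 18 of their markers 4 were measured, with a summed level of 537 to 683 CPM in cerebellum and 658 to 794 CPM in forebrain. Of the 4 markers 3 had positive log2 differences and 1 a negative one, with a median of 0.52. Mrc1 stood at 29.4, 76.7, 27.1, 69.9 and 48.5 in cerebellum and at 18.0 to 38.05 in forebrain. These values are CPM of each library's own table, and they overlapped between regions. Among the 4 measured markers the endocytic adaptor Dab2 rose (0.90, SE 0.25, adjusted p = 0.0412) and Stab1 fell. Trf lost its call without cerebellar C1, C2, C3 and I2 and forebrain C3 and I2 (adjusted p up to 0.113), Dab2 without cerebellar C2, C3, I1 and I2 and forebrain C1, C3, I1, I2 and I3 (adjusted p up to 0.169) and Stab1 without cerebellar C1, C2 and I2 and forebrain C1, C2 and I2 (adjusted p up to 0.11). The part of these cells in the region differences was not tested either.

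Some genes had rows in the tables of one region only. There were 114 such genes for cerebellum and 22 for forebrain, out of 8743 and 8227 in both tables of the region. Among those of cerebellum with the highest minimum were Chst1 (a sulfotransferase), Thsd1, Nlrc5 (a transactivator of MHC class I), Anxa2 (an annexin), Lgals3 (galectin 3), Lilrb4 (an inhibitory receptor) and Dna2 (a nuclease and helicase), with lowest libraries at 16.7 to 12.1 CPM of their tables. Those of forebrain were Col6a3 (a collagen chain), Igf2bp2 (an RNA-binding protein), Pde4d (a phosphodiesterase), Anks6, Slc39a12 (a zinc transporter), Prss36 (a protease), Nsun3 (an RNA methyltransferase) and Lepr (the leptin receptor), at 13.9 to 7.83 CPM. A missing row says only that the gene has no value in that table, so no fold is given.

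The region difference was also measured at P8 in Csf1fl/fl mice. In a fit of the 4 Csf1fl/fl groups over 7974 genes, cerebellum against forebrain gave 45 higher and 50 lower genes at 9 weeks (0.564% and 0.627%). At P8 it gave 7 higher (0.0878%) and 0 lower (0.0%), and 327 and 264 at an unadjusted p under 0.05. The 7 were the lipid genes Apoe and Abca1, the proteases Ctsd and Ctsb, the lysosomal phospholipase family member Pld3, the myelin gene Mbp and Lag3. Of the 114 genes higher in adult controls 108 were measured at P8, where 79 were positive, beside 49.6% of all genes, and 1, Apoe, was called. Of the 141 lower genes 135 were measured, of which 73 were negative, beside 50.4% of all genes. Of these 0 were called lower, and 3 (Ctsd, Lag3 and Abca1) were called higher.

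The change in region difference from P8 to 9 weeks was called for 21 genes, 0.263% of those tested, 6 positive (0.0752%) and 15 negative (0.188%). Lag3 changed sign. It stood at 263 ± 18.8 CPM in cerebellum and 689 ± 31.3 CPM in forebrain at 9 weeks, and at 369.7 ± 42.8 CPM and 206 ± 70.1 CPM at P8 (SD, n = 3 each). The interaction was -2.23 (SE 0.24, adjusted p = 7.82e-06), from log2 differences of -1.39 at 9 weeks and 0.85 at P8. The efflux transporter Abcg1, the desaturase Scd2 and the protease Ctsd had differences of 0.76, 0.56 and 0.68 at P8 and of -0.96, -1.17 and -0.32 at 9 weeks. Their interactions were -1.72 (SE 0.25, adjusted p = 0.000533), -1.73 (SE 0.24, adjusted p = 0.000336) and -1.0 (SE 0.13, adjusted p = 0.000114).

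For Fcrls the adult cerebellum was the low group. It stood at 4705 ± 217 CPM in P8 cerebellum, 4669.8 ± 231 CPM in P8 forebrain, 2015 ± 368 CPM in adult cerebellum and 4317 ± 500.0 CPM in adult forebrain (SD, n = 3 each), an interaction of -1.11 (SE 0.17, adjusted p = 0.000895). For Axl the adult forebrain was the low group, at 17.5 ± 6.40 CPM, against 96.7 ± 25.0 CPM in adult cerebellum, 87.0 ± 13.3 CPM in P8 cerebellum and 66.9 ± 17.0 CPM in P8 forebrain. Its interaction was 2.06 (SE 0.38, adjusted p = 0.0106). Lsp1, an actin-binding protein of leukocytes, and Emp3 had interactions of 1.63 (SE 0.27, adjusted p = 0.00276) and 2.22 (SE 0.42, adjusted p = 0.0123), and P2ry12 of -0.77 (SE 0.16, adjusted p = 0.0328). Each region at each age had a table of its own, so age and a batch by age cannot be told apart in the levels. In the interactions such a batch cancels only if it acts alike in both regions. A batch of a single region at a single age cannot be told apart from an interaction.

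Single libraries changed the count of genes whose region difference changed with age. Of the 21 genes 7 (Lag3, Ctsd, Scd2, Abcg1, Fcrls, Lsp1 and Abca1) kept their call under each omission, and 14 lost it under at least 1. Without P8 cerebellar C2 there were 1 positive and 6 negative calls, and without 9-week cerebellar C1 there were 11 and 15. The P8 forebrain library called C3 here carries no number in its title. Axl lost its call without 9-week forebrain C3 and P8 cerebellar C2 (adjusted p up to 0.0584), Emp3 without 9-week cerebellar C2 and P8 cerebellar C2 (adjusted p up to 0.0589) and P2ry12 without 9-week cerebellar C2 and C3, 9-week forebrain C2 and C3, P8 cerebellar C1 and C2 and P8 forebrain C1 and C3 (adjusted p up to 0.143).

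**Figure D4:**
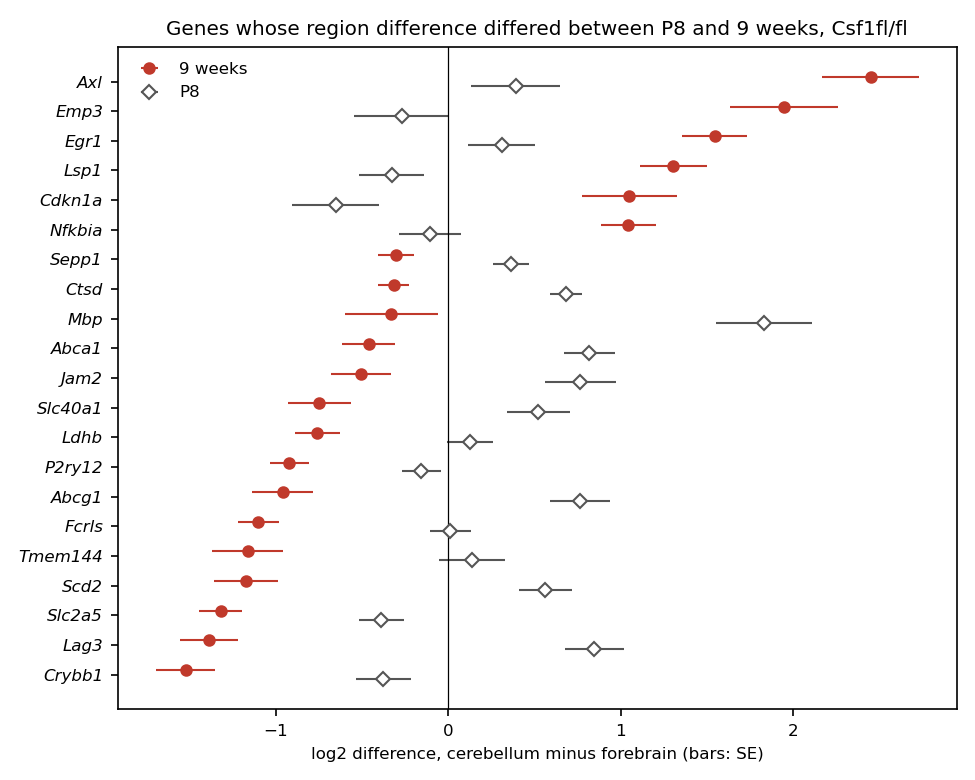
Log2 difference between cerebellum and forebrain at 9 weeks (filled circles) and at P8 (open diamonds) in Csf1fl/fl mice for the 21 genes whose region difference changed with age at an adjusted p under 0.05; bars are SE, with 3 libraries per group. Axl lies at 2.45 at 9 weeks and 0.39 at P8, and Lag3 at -1.39 and 0.85.

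The region difference was also measured in the mutant libraries, which were not in the main fit that called the 255 genes. They did help decide which genes have rows, and they were fitted together with the controls of their line. Mutants and controls of a region share a table, so a batch that coincides with region could recur in the mutants. In NesCreCsf1fl/fl mice 110 of the 114 higher genes and all 141 lower genes had the same sign as in controls. Of the higher genes 65 were called in that direction, beside 1.33% of the 9156 genes tested, and of the lower genes 73, beside 1.32% (2.65% together). In Il34Lacz/Lacz mice 96 of 114 and 127 of 141 had the same sign, and 7 and 5 were called, beside 0.227% and 0.0598% of 8367 genes (0.287% together). Of all genes 50.5% and 51.4% were positive in these comparisons. Calls in the opposite direction numbered 0 in both. The Il34Lacz/Lacz group had 2 cerebellar libraries.

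Upk1b had a log2 difference of -2.59 (SE 0.22, adjusted p = 7.96e-08) in NesCreCsf1fl/fl and of -1.77 (SE 0.33, adjusted p = 0.0203) in Il34Lacz/Lacz mice. Axl differed by 2.5 (SE 0.25, adjusted p = 9.79e-07) and 1.59 (SE 0.32, adjusted p = 0.0341), and Cd74 by 3.66 (SE 0.42, adjusted p = 5.32e-06) and 3.76 (SE 0.41, adjusted p = 0.000204). Fcrls differed by -0.95 (SE 0.13, adjusted p = 3.63e-05) and -1.31 (SE 0.20, adjusted p = 0.00621). These 4 genes were called in both mutants. Slc2a5 differed by -1.37 (SE 0.11, adjusted p = 3.24e-08) and -0.64 (SE 0.20, adjusted p = 0.28), and passed in the first only.

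The test of mutant against control called 0 of 9156 genes for Csf1 and 0 of 8367 for Il34 (0.0% each), with edgeR and with DESeq2. At an unadjusted p under 0.05 edgeR had 350 and 431 genes and DESeq2 283 and 268. Without Il34Lacz/Lacz cerebellum replicate 2 the Il34 test called 2 genes, with 1 library left in that arm, which is assumed to vary like the other groups. For Csf1 the smallest p belonged to Fxyd5, Nosip and 4933411K20Rik (positive) and to Myo18b, Cd34 and Mpi (negative), such as Myo18b with -2.18 (SE 0.52, adjusted p = 0.999). For Il34 they were Kdm1b, Rac1 and Fam49b (positive) and Cadm1, Ptchd1 and Fam115a (negative). Ptchd1 differed between regions by 1.69 (SE 0.22, adjusted p = 0.00134) in Il34wt/wt and by 0.45 (SE 0.20, adjusted p = 0.532) in Il34Lacz/Lacz mice, an interaction of -1.23 (SE 0.30, adjusted p = 0.901).

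**Figure D5:**
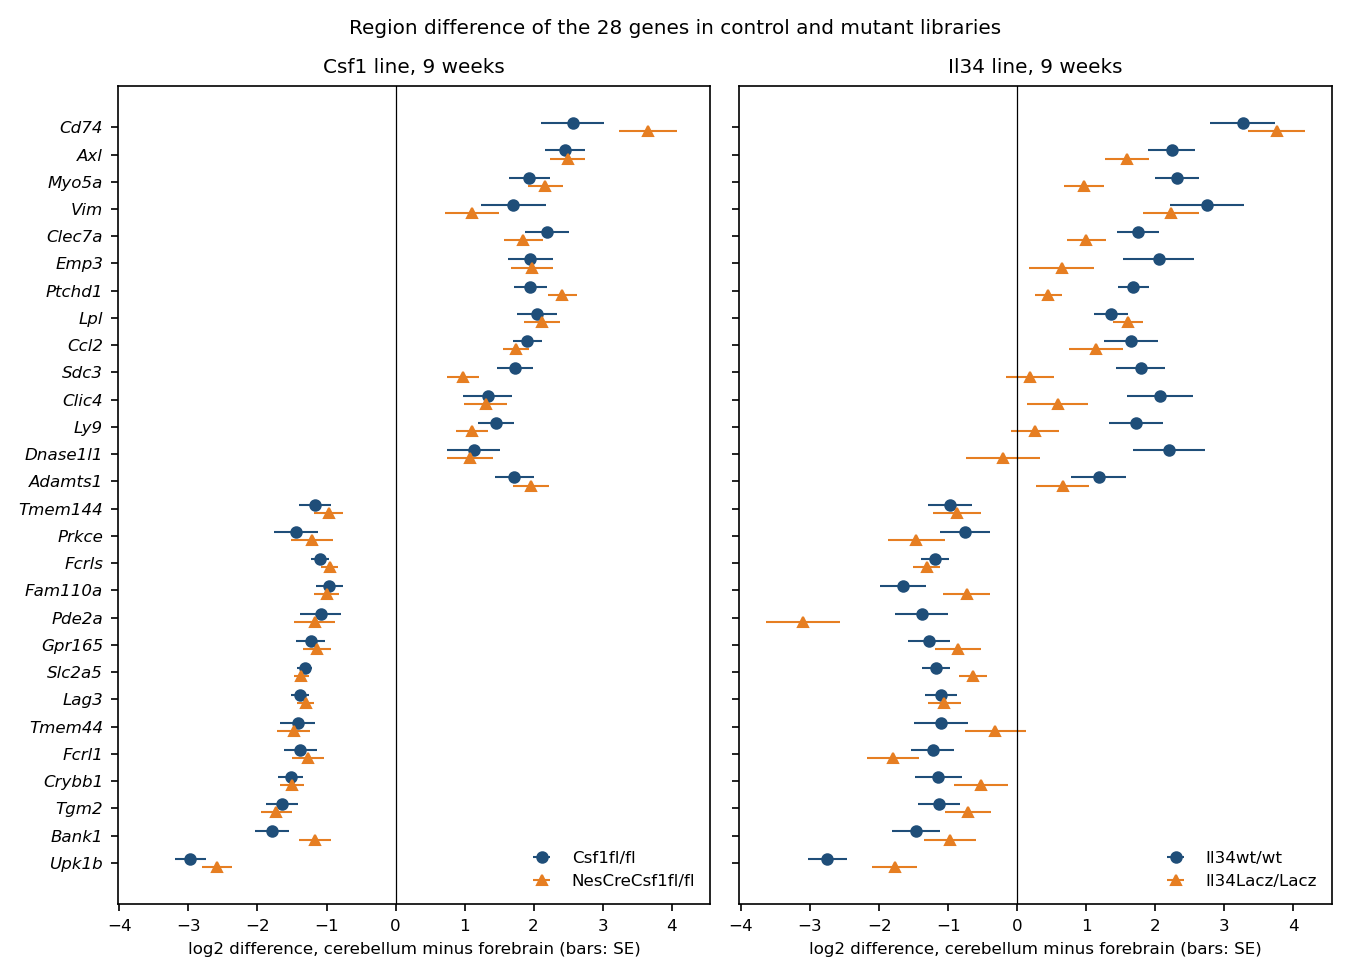
Log2 difference between cerebellum and forebrain for the 28 genes named by size, in controls (circles) and mutants (triangles) of the Csf1 line (left) and the Il34 line (right) at 9 weeks; bars are SE. In the Csf1 panel Upk1b lies at -2.97 in controls and -2.59 in mutants, and in the Il34 panel Dnase1l1 lies at 2.20 and -0.20, an interaction that was not called.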

How the data were processed

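FACS-sorted microglia were profiled by RNA-seq (Immgen ultra-low-input protocol, Nextera XT libraries, NextSeq-500, per the labels). The submitters' processing notes name STAR 2.5.3, featureCounts and mm10; how values were normalised and whether counting used strand is not given in the sources used here. Signal values as deposited are the authors' normalised gene values, in a table for each region, line and age with control and mutant libraries. In each column, after a constant of 0.1 was subtracted, 100% of the values were whole multiples of a single step within 0.01 reads, and reads were recovered on that basis. The constant and step are read from the values and not stated by the authors, and all tests rest on them. The limma alternatives used log2 CPM of the same recovered reads. Recovered reads came to 551909 to 1661887 per control table column, which limits the precision of low genes. Date-like gene names were left out.

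Genes in all 4 adult control tables were normalised jointly (TMM) and tested with edgeR 4.0.16 (quasi-likelihood, R 4.3.3) with line as a covariate and Benjamini-Hochberg adjustment over 8006 genes. The low-count filter removed none of them. Log2 differences are cerebellum minus forebrain. Age and genotype were tested as interactions with region in their own fits. Alternatives used other scaling factors and filters, DESeq2 1.42.0, limma 3.58.1, other covariates and sample sets, and the omission of each library in turn. The omission of both Csf1fl/fl libraries numbered 2, and of several gene lists before normalisation, was chosen after the data were seen. On simulated counts with 200 changed genes the test recovered 32.8%, 80.6% and 100% of genes changed 1.5-fold, 2-fold and 4-fold, and 7.79% of its calls were false.

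The members and gene lists were chosen with earlier results of these data known. Named genes are the 14 largest differences in each direction among called genes that averaged 4 or more in log2 CPM, with no overlap between regions and the same sign in both lines, up to 4 called members of each list by p (or the 2 most abundant where none was called), the 3 smallest p of each interaction in each direction, Csf1, Il34 and Csf1r, and the 8 highest genes with rows for one region only; predicted and ribosomal genes were left out of the 14. The other called list members, H2-Aa, H2-Eb1, H2-Ab1 and the genes of the age comparison beyond this rule were named after their values were seen. The same holds for Mrc1, S100a8 and S100a9. A few genes that this rule names are not reported here.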

Additional observations from a re-analysis of the deposited data

Results flagged for a closer look

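A library far from the others of its region was found in 8 of 226 sets of 5 or 6 libraries of a named gene (Dixon's criterion at 95%), where chance alone marks about 1 in 20. In cerebellum Csf1fl/fl replicate 1 was low for Clec7a (60.5 CPM, the others 121 to 159 CPM) and Abcg1 (238 CPM, the others 314 to 340.2 CPM). In cerebellum Il34wt/wt replicate 2 was low for Crybb1 (30.3 CPM, the others 52.3 to 62.8 CPM), Trf (1471 CPM, the others 1671 to 1756 CPM) and Olfml3 (1516 CPM, the others 2179.8 to 2524 CPM). In forebrain Il34wt/wt replicate 3 was low for Emp3 (2.30 CPM, the others 9.00 to 16.0 CPM) and high for Klf6 (356 CPM, the others 240.1 to 262 CPM). In forebrain Csf1fl/fl replicate 2 was high for Lpl (75.2 CPM, the others 26.9 to 35.4 CPM).

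The region difference changed between P8 and 9 weeks for 21 genes in Csf1fl/fl mice, by the interaction test. As log2 differences at 9 weeks minus P8, the negative values were -2.23 for Lag3, -1.0 for Ctsd, -1.73 for Scd2, -1.72 for Abcg1, -1.11 for Fcrls, -1.28 for Abca1, -2.16 for Mbp, -0.93 for Slc2a5, -1.27 for Slc40a1, -1.15 for Crybb1, -0.89 for Ldhb, -0.77 for P2ry12, -1.27 for Jam2, -1.30 for Tmem144 and -0.67 for Sepp1. The positive values were 1.63 for Lsp1, 2.06 for Axl, 2.22 for Emp3, 1.15 for Nfkbia, 1.23 for Egr1 and 1.70 for Cdkn1a.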

How the results depend on the processing

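All 255 calls kept their sign under the alternatives that used all genes. Against 114 higher and 141 lower genes, the fit without line gave 41 and 37, only Csf1fl/fl libraries 36 and 37, and only Il34wt/wt libraries 28 and 19. Replicate numbers were not taken as pairs, since deviations of same-numbered libraries correlated at 0.314, 0.316 and 0.049 in the Csf1 line and at -0.116 and -0.0571 in the Il34 line, not over 0.1 in every pair. In the Csf1 line each library correlated best with its own number, a hint from the data. The 2 cerebellar libraries of the Il34 line deviate equally and oppositely from their mean, so the Il34 values say little about pairing. A replicate block gave 178 higher and 230 lower genes, among them Ccr2 (1.27, adjusted p = 0.0141) and Csf1r (-0.23, adjusted p = 0.0187). It called 4 genes of the CSF1R list lower. Leaving out single libraries gave 82 to 113 higher and 100 to 145 lower genes. It also gave 1 to 11 positive and 6 to 15 negative age interactions, where DESeq2 gave 14 and 38, and 0 to 2 negative Il34 genotype interactions. Where 1 cerebellar library of the Il34 line was left in an arm, it is assumed to vary like the other groups. The cause of these shifts was not tested, beyond fewer libraries in the fits that left some out.

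Of 95 named called genes 71 kept their call under each omission. Over 152 gene results and 3450 alternatives, 3017 kept direction and side of the threshold, 393 lost the call, 8 gained it and 32 changed sign, all in genes that were not called. Hmgcs1, at 0.017, gave -0.041 with voom, -0.068 with the replicate block and -0.076 with only Csf1fl/fl, and -0.097 to 0.088 over single omissions. Kdm5a, at -0.018, gave 0.047 with library totals alone, 0.065 with voom, 0.0060 with the replicate block, 0.0017 with all 9-week libraries, 0.14 with only Il34wt/wt and 0.13 with both Csf1fl/fl libraries numbered 2 left out, and -0.065 to 0.076 over single omissions. Atp5b, at 0.045, gave -0.026 with only Il34wt/wt and -0.040 with both Csf1fl/fl libraries numbered 2 left out, and -0.0084 to 0.068 over single omissions. Atp5a1, at 0.062, gave -0.028 with only Csf1fl/fl. Cd79b, at 0.0054, gave -0.00032 with DESeq2, -0.13 with the replicate block, -0.0015 with only Csf1fl/fl and -0.0081 with only Il34wt/wt, and -0.14 to 0.16 over single omissions. Bsg, at -0.089, gave 0.028 with no line covariate. Of 673 list medians 29 moved beyond their spread. Library totals alone kept 210 of the 255 calls. Depth limits genes of few reads, and age, line and table cannot be told apart in levels. A batch of a single region at a single age cannot be told apart from an age interaction.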
